A study of Sus scrofa with 6 samples.

Results

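The genes described here encode the non-collagen part of the extracellular matrix, namely its glycoproteins, proteoglycans and laminins, together with the proteases that cut it and their inhibitors. They were 59 genes listed by symbol for what their proteins do, from a table of 28266 genes. The rule names no measured value, but the list was drawn up with earlier results of these data known. An Ensembl identifier in the table carried the symbol of 50 of them. MFAP4, MFAP5, OGN, LAMA1, LAMA2, LAMA5, TIMP2, TIMP3 and TIMP4 were not analysed here. Of the 50 genes, 42 passed the expression minimum of a mean FPKM of at least 1, and 8 lay under it.

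Skeletal muscle fibers are wrapped in a basement membrane, a thin sheet in which a laminin network is tied to type IV collagen by nidogens and perlecan. Satellite cells lie between this sheet and the fiber. Outside it lies the interstitial matrix, in which fibronectin, elastic fibers, collagen-binding proteoglycans and matricellular proteins such as tenascin and the thrombospondins are laid down mostly by fibroblasts, and also by proliferating myoblasts. Metalloproteases of the MMP, ADAM and ADAMTS families cut these proteins, and TIMPs block them.

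The libraries came from porcine satellite cells (PSCs) taken from the limb muscles of male Yorkshire pigs aged 3 days and grown on Matrigel, a basement membrane extract. Fibroblasts were reduced by preplating, that is, by letting them attach to uncoated dishes. Both groups were transfected with the same negative control (NC) siRNA, moved to horse serum medium to form myotubes, and harvested at 24 h (NC24h) or at 36 h (NC36h), with 3 libraries each, numbered 4, 5 and 6. For NC36h the sample labels state 48 h, but the series title and the methods state 36 h. The extraction note names endometrium, whereas the tissue label is skeletal muscle and muscle markers were abundant in each library. The siRNA is known from the letter N of the sample titles and not from a label. Whether the libraries of a group came from separate cultures or pigs is not stated, so p-values measure the spread between these libraries, which may be technical.

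FPKM is the number of fragments of a gene scaled by its length and by the library's counted fragments. Fragment numbers, here and below, were worked back from the FPKM values, and they summed to between 16250222 and 21723087 per library. A gene was called when limma, fitted to log2(FPKM + 1) of all 14060 genes above the minimum, gave an adjusted p under 0.05, and changes are NC36h minus NC24h on that scale, which understates the change of genes with low FPKM. The median change of all tested genes was -0.16 on the deposited values and -0.006 after median-ratio scaling, so a change is to be read against that shift. NC24h replicate 6 stood apart from replicates 4 and 5. Its myoblast and myotube markers summed to an FPKM of 3397 against 6513 and 5630, and its proliferation markers to 99.0 against 36.7 and 50.7. The same sums lay between 12760 and 14769 and between 7.23 and 11.2 in NC36h. Of the muscle markers, NC24h replicate 6 was the lowest of its group for ACTA1, MYL1, MYMK, DES and TNNC2. It was the highest for MYOD1 (386.4 against 254.8 and 306.0), MYF5 (111.8 against 66.9 and 75.4), CDH15 and MYF6. NC36h replicate 6 also differed from its group in CCN1 and CCN2, secreted proteins that are induced rapidly by serum and stretch. CCN1 was at 380.8 there against 48.8 and 64.8, and CCN2 at 474.1 against 93.7 and 141.9.

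Matrix genes moved in both directions between the time points. Of the 42 tested, 18 were lower and 13 were higher in NC36h, and 11 were not called. That is 42.9% lower, where 34.4% of all tested genes were, and 31.0% higher, where 16.5% were. In all, 73.8% of them were called, against a background of 50.9%. Highly expressed genes are called more often, and of the 32 matrix genes that averaged 5 FPKM or more the share was 68.8%, against 57.2% of all genes above that level. A log2 change of 1 or more was called in 14 of the 42, where 8.36% of all genes had one. It was downward in 9 (4.77% of all genes) and upward in 5 (3.60% of all genes). The values of the 2 groups did not overlap in 35 of the 42, where 63.6% of all genes showed no overlap. Without NC24h replicate 6, 19 were lower (34.8% of all genes) and 14 higher (17.4%). With median-ratio scaling 15 were lower (22.3% of all genes) and 14 higher (23.9%). In 15 of the 18 lower genes, NC24h replicate 6 was the highest of its group (83.3%), as it was in 67.0% of all genes called lower.

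**Figure D1:**
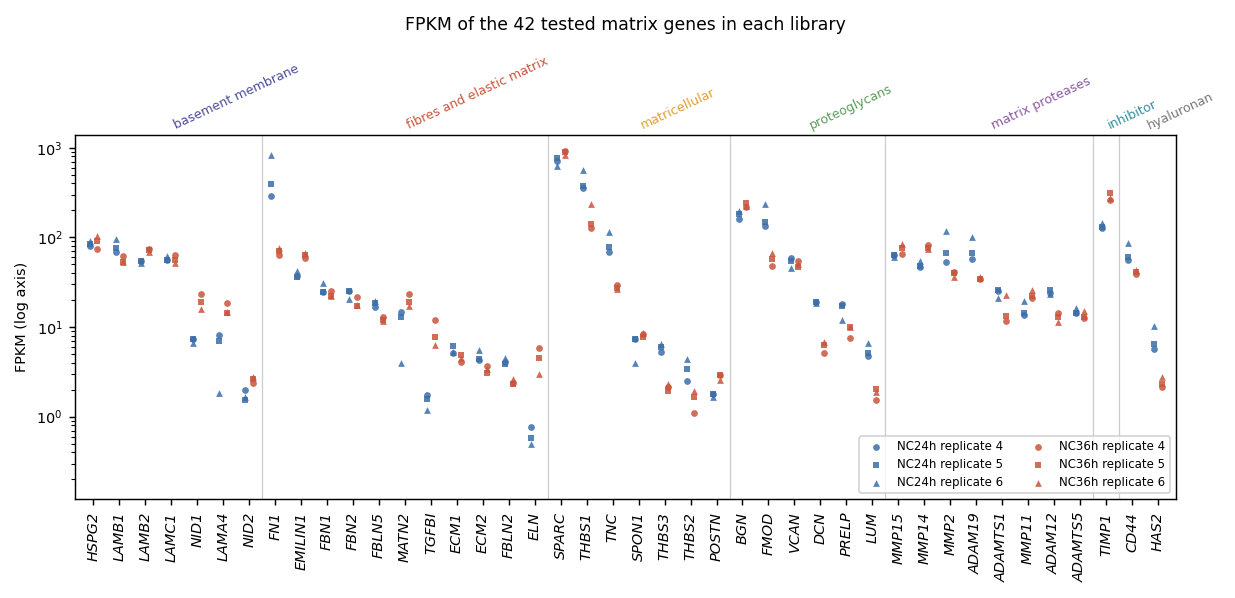
FPKM (log axis) of the 42 tested matrix genes in each of the 6 libraries, grouped by role; blue symbols are NC24h, red symbols NC36h, and circles, squares and triangles are replicates 4, 5 and 6. SPARC, FN1 and THBS1 were the highest in NC24h, and NC24h replicate 6 (blue triangle) lay apart for FN1, LAMA4, MATN2 and MMP2.

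SPARC, FN1 and THBS1 had the highest levels at 24 h, with mean FPKM of 703.4, 502.6 and 428.2, and ranked 107, 162 and 193 in the whole table. FPKM depends on the length of the gene model, and the values implied a model of only 465 nucleotides for SPARC and 8144 for FN1, so an order of levels between genes holds for these models only. BGN, FMOD and TIMP1 followed at 179.7, 170.9 and 133.6. The lowest tested genes at 24 h were ELN, TGFBI, NID2 and POSTN, which lay between 0.616 and 1.74.

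In the basement membrane the genes of laminin changed unequally. LAMA4 encodes the laminin α4 chain, which is found in embryonic muscle and around vessels and nerves. At 24 h its FPKM was 8.17, 7.07 and 1.85 (values are in the order of replicates 4, 5 and 6 throughout), and at 36 h it was 18.5, 14.5 and 14.6. The NC24h libraries were all lower, with replicate 6 far under replicates 4 and 5. LAMA4 rose by 1.49 (standard error 0.42, limma adjusted p = 0.0245), and by 0.96 without NC24h replicate 6. The call was lost in the fits without NC36h replicate 4, 5 or 6 (adjusted p from 0.0574 to 0.0778, with 0.00175 to 0.0778 over all alternatives).

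The β chains moved in opposite directions. LAMB1, the β1 chain made widely during development, had an FPKM of 69.3, 75.6 and 95.2 in NC24h and 62.3, 52.5 and 52.8 in NC36h. It fell by 0.50 on the log2 scale (standard error 0.13, limma adjusted p = 0.0181). LAMB2, the β2 chain enriched at the neuromuscular junction, was at 55.2, 54.8 and 51.9 and then at 74.8, 72.6 and 68.6, with no overlap. Its rise was 0.41 (standard error 0.06, limma adjusted p = 0.00264) and was called in all 15 alternatives. For LAMB1 the call was lost with median-ratio scaling (-0.33, adjusted p = 0.0564) and in the fits that left out NC36h replicate 5 or 6 (0.0672 and 0.0575). Over all alternatives it ran from 0.0126 to 0.0672. The ratio of LAMB2 to LAMB1 within a library, in which library scaling cancels, was 0.797, 0.725 and 0.545 in NC24h and 1.2, 1.38 and 1.3 in NC36h. LAMB1 was thus the higher of the 2 in each NC24h library and LAMB2 in each NC36h library.

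LAMC1, the γ1 chain that most laminins share, had an FPKM of 55.4, 55.6 and 61.7 in NC24h and 63.8, 55.8 and 52.2 in NC36h, with overlap. Its change of -0.01 (95% interval -0.23 to 0.20, limma adjusted p = 0.932) was within the spread of the libraries, and its sign depended on the setting. HSPG2, which encodes perlecan, behaved alike, with 80.7, 83.3 and 90.9 and then 74.6, 91.4 and 102.8 (change 0.07, 95% interval -0.22 to 0.35, limma adjusted p = 0.672).

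Both nidogens, the linkers between laminin and type IV collagen, were higher in NC36h. NID1 had an FPKM of 7.44, 7.34 and 6.64 in NC24h and 23.5, 18.8 and 15.8 in NC36h, so that its lowest late library was more than double its highest early one. It rose by 1.31 (standard error 0.14, limma adjusted p = 0.00117), which rested on 452 fragments in NC24h and 1509 in NC36h. NID2 was lower in level, at 1.99, 1.54 and 1.65 and then 2.40, 2.63 and 2.74. It rose by 0.40 (standard error 0.11, limma adjusted p = 0.0236). The NID2 call was lost with the replicate number as a block (adjusted p = 0.0550) and without NC24h replicate 5, NC36h replicate 5 or NC36h replicate 6 (adjusted p of 0.0798, 0.0825 and 0.0704), with a range from 0.00871 to 0.0825. The collagens of this sheet were listed separately. COL4A2 and COL15A1 were the members of that list that could be tested, and both rose, by 1.66 and 0.93 (limma adjusted p = 0.000586 and 0.00174). COL4A2 went from 26.9, 25.4 and 22.3 to 84.2, 80.3 and 76.9. Under the FPKM minimum, COL4A5 and COL4A6 had lower means in NC36h, on 40 or fewer fragments per group. COL4A5 went from 0.585 to 0.229, with overlap, and COL4A6 from 0.128 to 0.0424, without overlap.

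**Figure D2:**
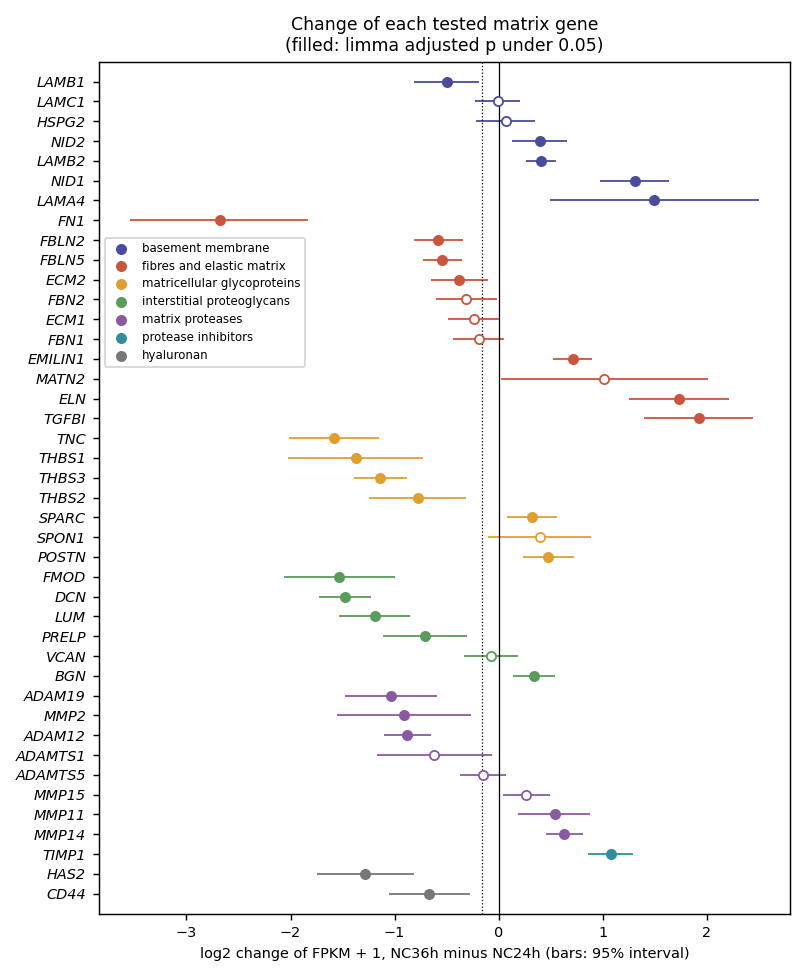
Change of log2(FPKM + 1), NC36h minus NC24h, of each of the 42 tested genes with its 95% interval from limma; filled points had an adjusted p under 0.05 and open points did not. The solid line marks 0 and the dotted line the median change of all tested genes (-0.16); FN1 changed by -2.68 at one end and TGFBI by 1.92 at the other.

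Among the genes of fibers and elastic matrix, 4 of 11 were lower in NC36h (36.4%, near the 34.4% of all tested genes) and 3 were higher (27.3%, against 16.5%). FN1, fibronectin, the cell-binding fibril to which proliferating myoblasts adhere, was the gene with the largest fall of the 42. It was at 286.1, 392.2 and 829.5 in NC24h and at 63.8, 69.9 and 75.8 in NC36h, a mean 7.20-fold lower (change -2.68, limma adjusted p = 0.00192, and -2.25 without NC24h replicate 6). As a share of the summed FPKM of the 29 interstitial genes in the table, FN1 made up 14.5%, 17.9% and 29.7% in NC24h and 3.85%, 4.22% and 4.48% in NC36h. FBLN5 and FBLN2, fibulins that bind elastin and basement membrane proteins, fell by 0.54 and 0.58 on the log2 scale (limma adjusted p = 0.00250 and 0.00389). ECM2, a matrix protein with leucine-rich repeats, fell by 0.38 (limma adjusted p = 0.0316), but this call was lost in 7 alternatives, among them median-ratio scaling (-0.24, adjusted p = 0.103), quantile normalization (-0.19, adjusted p = 0.146) and the fits without NC24h replicate 5 or NC36h replicate 4, 5 or 6 (adjusted p from 0.0528 to 0.112). Its range over the alternatives was 0.0267 to 0.146. The span of ECM2 overlaps that of CENPP, and whether reads of CENPP were counted for ECM2 was not tested.

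The 3 genes of this group that rose were ELN, TGFBI and EMILIN1. ELN, which encodes tropoelastin, was at 0.768, 0.584 and 0.498 in NC24h and at 5.81, 4.55 and 3.03 in NC36h. With 45 fragments in the 3 early libraries and 403 in the late ones, its rise was 1.73 (standard error 0.20, limma adjusted p = 0.00137), and it was 2.80 when voom was fitted to the recovered fragments with no pseudocount on FPKM. TGFBI, an adhesion protein induced by TGF-β, was at 1.75, 1.58 and 1.19 and then at 12.1, 7.76 and 6.36. It rose by 1.92 (standard error 0.22, limma adjusted p = 0.00130), the largest rise of the 42. EMILIN1, an elastin-associated glycoprotein that limits TGF-β processing, rose from 38.5 ± 2.86 to 63.5 ± 4.45 (SD, n = 3 each; change 0.71, limma adjusted p = 0.00131). In all of ELN, TGFBI and EMILIN1 the lowest NC36h library was above the highest NC24h library.

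The fibrillin genes FBN1 and FBN2, which encode the microfibrils on which elastin is deposited, were not called. MFAP2, another microfibril gene, lay under the FPKM minimum and was higher in each NC36h library than in any NC24h library. FBN1 was between 24.6 and 30.7 in NC24h and between 22.1 and 25.1 in NC36h (change -0.19, 95% interval -0.44 to 0.05, limma adjusted p = 0.158). FBN2 was between 20.5 and 25.4 and then between 17.3 and 21.9 (change -0.31, 95% interval -0.60 to -0.02, limma adjusted p = 0.0717). The FBN2 change passed the threshold without NC24h replicate 6 (-0.40, adjusted p = 0.0223), without NC36h replicate 4 (-0.41, adjusted p = 0.0338) and with the replicate block (adjusted p = 0.0432). Over all alternatives it ran from 0.0223 to 0.394. ECM1 changed by -0.24 (limma adjusted p = 0.0926). MATN2, a matrilin, was at 14.7, 12.8 and 3.98 in NC24h and at 23.3, 19.0 and 17.3 in NC36h. Its change of 1.01 (95% interval 0.02 to 2.01, limma adjusted p = 0.0818) did not pass, although the groups did not overlap, and NC24h replicate 6 was far under the other two. Without that library it was 0.49 with an adjusted p of 0.0222, without NC24h replicate 4 it was 1.32 (0.0402), and with the replicate block the adjusted p was 0.0343 (range 0.0222 to 0.198).

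Of the matricellular glycoproteins, which modulate adhesion rather than build fibrils, 4 of 7 were lower and 2 higher (57.1% and 28.6%, against 34.4% and 16.5% of all tested genes). TNC, tenascin-C, the anti-adhesive protein of regenerating muscle, was at 69.2, 77.8 and 115.0 in NC24h and at 29.7, 27.1 and 26.8 in NC36h. It fell by 1.58 on the log2 scale (standard error 0.18, limma adjusted p = 0.00129) and was called in all 15 alternatives. THBS1, thrombospondin-1, which activates latent TGF-β, was at 351.8, 371.2 and 561.4 and then at 127.5, 139.8 and 234.1. It changed by -1.37 (standard error 0.27, limma adjusted p = 0.00653), and NC36h replicate 6 was the highest late library, as it was for CCN1 and CCN2. THBS3 was at 5.29, 5.92 and 6.48 and then at 2.16, 1.91 and 2.32, a change of -1.14 (standard error 0.11, limma adjusted p = 0.000870). THBS2 changed by -0.78 (limma adjusted p = 0.0168), and this call was lost in the fits that left out NC24h replicate 5 (0.0504) or NC36h replicate 4 (0.0525). The range was 0.00599 to 0.0525. THBS4 had 0 fragments in each library, which allows up to 3 fragments per library.

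SPARC, a collagen-binding glycoprotein, was the most abundant of the 50 genes at both times. It was at 714.4, 773.7 and 622.2 in NC24h and at 916.7, 886.0 and 822.3 in NC36h, without overlap. Its rise of 0.32 (standard error 0.10, limma adjusted p = 0.0342) was one of the least firm calls. It was 0.49 with median-ratio scaling (adjusted p = 0.0110), and it was lost with no filter (adjusted p = 0.0690) and without NC24h replicate 4 or any of the NC36h libraries (adjusted p from 0.05 to 0.105, the range being 0.0110 to 0.105). POSTN, periostin, stayed low, at 1.80, 1.79 and 1.64 and then 2.94, 2.95 and 2.54, and rose by 0.47 (standard error 0.10, limma adjusted p = 0.00913). SPON1 was between 3.94 and 7.44 and then between 7.69 and 8.66 (change 0.40, 95% interval -0.10 to 0.89, limma adjusted p = 0.152).

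The small leucine-rich proteoglycans, which coat collagen fibrils and set their spacing, did not move together. With VCAN, 4 of the 6 tested proteoglycans were lower and 1 higher (66.7% and 16.7%, against 34.4% and 16.5% of all tested genes). ASPN, which lay under the FPKM minimum, was higher in each NC36h library than in any NC24h library. DCN, decorin, which binds myostatin and TGF-β, was at 18.8, 19.0 and 18.5 in NC24h and at 5.09, 6.37 and 6.89 in NC36h. It changed by -1.48 (standard error 0.11, limma adjusted p = 0.000640), the smallest adjusted p of the 42, and by -1.49 without NC24h replicate 6. FMOD, fibromodulin, was at 132.3, 147.8 and 232.8 and then at 47.8, 57.1 and 67.0 (change -1.53, standard error 0.22, limma adjusted p = 0.00250). LUM, lumican, fell from 4.70, 5.13 and 6.69 to 1.55, 2.06 and 1.88 (change -1.19, standard error 0.14, limma adjusted p = 0.00149). PRELP, a heparin-binding member, was at 17.9, 17.2 and 12 and then at 7.61, 9.92 and 10, a change of -0.71 (limma adjusted p = 0.0139).

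BGN, biglycan, which is close to decorin in sequence and binds the dystrophin-associated dystroglycan and sarcoglycans, went the other way. It was at 162.1, 181.2 and 195.7 in NC24h and at 218.6, 239.6 and 224.5 in NC36h. The rise was 0.34 (standard error 0.08, limma adjusted p = 0.0152), or 0.52 with median-ratio scaling, and of the 15 alternatives only the fit lacking NC36h replicate 5 ended the call (adjusted p = 0.0634, range 0.00322 to 0.0634). There were 8.60, 9.54 and 10.6 FPKM of BGN for each FPKM of DCN in the NC24h libraries, and 42.9, 37.6 and 32.6 in NC36h. VCAN, versican, the large hyaluronan-binding proteoglycan, was between 46.0 and 59.2 and then between 46.4 and 55.2 (change -0.07, 95% interval -0.33 to 0.19, limma adjusted p = 0.621), and its sign turned with median-ratio scaling (0.10).

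Some of these genes lie next to each other. On RefSeq for Sscrofa11.1, DCN (chr5:91678601-91713925) and LUM (chr5:91748871-91756381) are 34.9 kb apart with 0 protein-coding genes between them, and they changed by -1.48 and -1.19. FMOD (chr9:64062995-64073853) and PRELP (chr9:64190978-64207008) are 117.1 kb apart, also with 0 between them, and changed by -1.53 and -0.71. ADAMTS1 (chr13:190277175-190285957) and ADAMTS5 (chr13:190353019-190413110) are 67.1 kb apart, with 1 gene between them, and neither was called. The closest pair was ASPN (chr3:42165553-42192902) and ECM2 (chr3:42205246-42243746), 12.3 kb apart with 0 between them, and their values went in opposite directions. The mean FPKM of ASPN was 0.176 in NC24h and 0.413 in NC36h, and that of ECM2 was 4.72 and 3.39. ASPN rested on only 23 and 66 fragments, and ECM2 was called in 7 of 14 alternatives. The spans of both overlap that of CENPP.

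**Figure D3:**
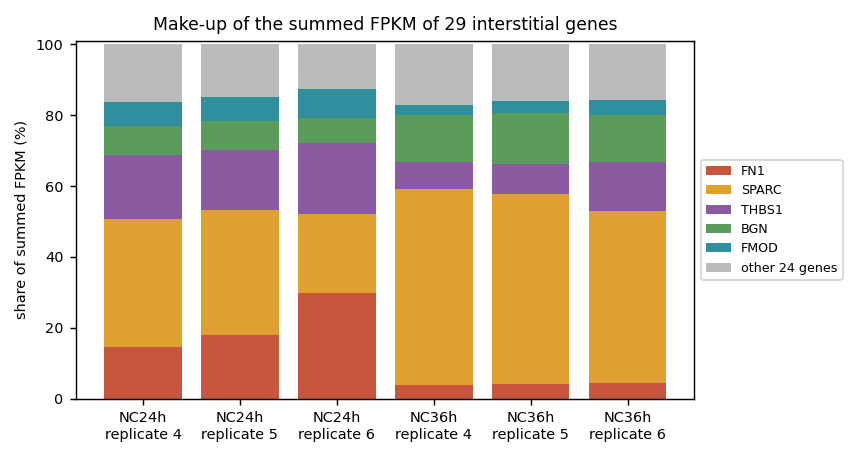
Make-up of the summed FPKM of the 29 interstitial genes in each library, in percent. FN1 (red) took between 14.5% and 29.7% in NC24h and between 3.85% and 4.48% in NC36h, while SPARC (orange) took between 22.3% and 36.3% and then between 48.6% and 55.2%.

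Of the matrix proteases 3 of 8 were lower (37.5%, near the 34.4% of all tested genes) and 2 were higher (25%, against 16.5%). Lower in NC36h were ADAM19, MMP2 and ADAM12. ADAM19, meltrin beta, a membrane protease that sheds neuregulin, was at 57.8, 66.9 and 99.7 and then at 34.6, 34.0 and 36.6 (change -1.03, standard error 0.19, limma adjusted p = 0.00490). ADAM12, meltrin alpha, known from the regulation of myoblast fusion, was at 24.2, 26.2 and 23.1 and then at 14.2, 13.0 and 11.5 (change -0.88, standard error 0.09, limma adjusted p = 0.00117). MMP2, a gelatinase that cuts type IV collagen and fibronectin, was at 52.6, 66.7 and 117.5 and then at 41.2, 40.2 and 36.2. Its change of -0.91 (standard error 0.27, limma adjusted p = 0.0284) was -0.59 without NC24h replicate 6, and the call was lost with median-ratio scaling (-0.74, adjusted p = 0.0517), without NC24h replicate 5 (adjusted p = 0.0544) and without any of the NC36h libraries (adjusted p from 0.0665 to 0.0814). The range was 0.00662 to 0.0814.

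MMP14, the membrane-type protease that activates pro-MMP2, was higher in NC36h. It was at 47.1, 48.5 and 54.3 in NC24h and at 82.7, 76.5 and 74.6 in NC36h (change 0.63, standard error 0.08, limma adjusted p = 0.00155) and was called in all 15 alternatives. MMP11, stromelysin-3, was at 13.5, 14.3 and 19.4 and then at 21.2, 22.4 and 25.6. The rise of 0.54 (limma adjusted p = 0.0199) was lost without NC24h replicate 5, NC36h replicate 5 or NC36h replicate 6 (adjusted p of 0.0670, 0.0570 and 0.0640, range 0.00188 to 0.0670). MMP15, a second membrane-type enzyme and the most abundant of the 9 proteases after MMP14 at 36 h, was at 64.1, 63.4 and 60 and then at 65.9, 77.1 and 83.5. Its change of 0.26 had a limma adjusted p of 0.0529, and it passed in 4 alternatives, namely median-ratio scaling (0.43, adjusted p = 0.0138), quantile normalization (0.0456), voom (0.0479) and without NC36h replicate 4 (0.0155), with a range from 0.0138 to 0.149.

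ADAMTS1 and ADAMTS5, which cut versican and aggrecan, were not called. ADAMTS1 was at 25.5, 25.6 and 21.3 and then at 11.7, 13.3 and 23.0 (change -0.62, 95% interval -1.17 to -0.06, limma adjusted p = 0.0624). NC36h replicate 6 lay with the NC24h libraries, and without it the change was -0.89 with an adjusted p of 0.00531. It also passed with voom (adjusted p = 0.0482), and the range was 0.00531 to 0.176. ADAMTS5 was between 14.5 and 16.5 and then between 12.6 and 15.2 (change -0.15, 95% interval -0.37 to 0.07, limma adjusted p = 0.220).

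TIMP1, the secreted inhibitor of most MMPs, was at 125.9, 131.0 and 144.0 in NC24h and at 261.9, 313.7 and 274.8 in NC36h. The groups were far apart and the mean was 2.12-fold higher (change 1.08, standard error 0.09, limma adjusted p = 0.000721). It was the TIMP that could be analysed. The span of TIMP1 lies within that of SYN1, a neuronal gene. Set against its targets within each library, TIMP1 had 2.39, 1.96 and 1.23 times the FPKM of MMP2 in NC24h and 6.35, 7.79 and 7.6 times in NC36h. MMP14 had 0.896, 0.727 and 0.462 times the FPKM of MMP2 in NC24h, under 1 in each library, and 2.01, 1.90 and 2.06 times in NC36h.

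Both hyaluronan genes fell. HAS2, the main hyaluronan synthase of mesenchymal cells, was at 5.67, 6.55 and 10.2 and then at 2.15, 2.34 and 2.76, a change of -1.28 (standard error 0.20, limma adjusted p = 0.00295). CD44, the hyaluronan receptor, was at 55.4, 59.9 and 86.8 and then at 39.1, 41.3 and 43.6, a change of -0.67 (limma adjusted p = 0.0145). The fit lacking NC36h replicate 4 ended this call (adjusted p = 0.0508, range 0.00264 to 0.0508). For both, NC24h replicate 6 was the highest library.

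**Figure D4:**
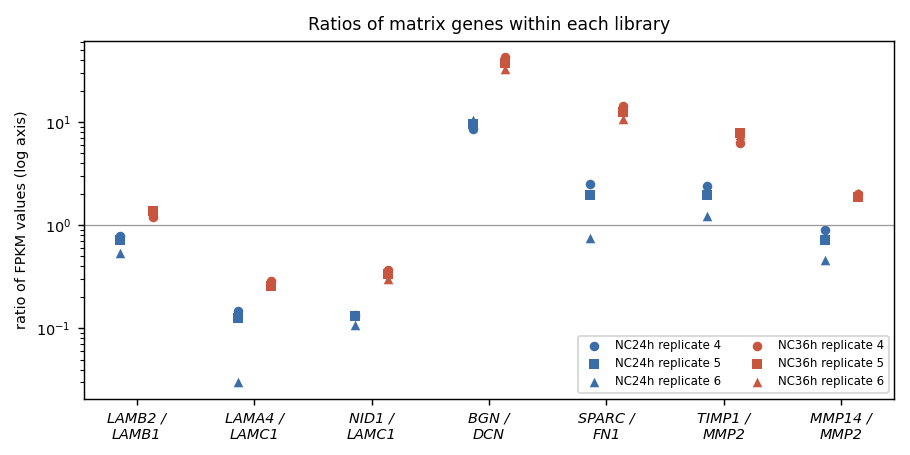
Ratios of the FPKM of 7 pairs of matrix genes within each library (log axis, with a line at 1), so that library scaling cancels; blue symbols are NC24h, red symbols NC36h, and circles, squares and triangles are replicates 4, 5 and 6. The groups did not overlap in any of the 7 pairs, and LAMB2 to LAMB1 and MMP14 to MMP2 went from under 1 to above 1 in every library.

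These pairs were chosen with the values of the genes known, so their ratios are a description. SPARC had 2.5, 1.97 and 0.75 times the FPKM of FN1 in NC24h and 14.4, 12.7 and 10.8 times in NC36h. Relative to the shared γ1 chain, LAMA4 went from 0.102 ± 0.0628 to 0.277 ± 0.0149 and NID1 from 0.125 ± 0.0148 to 0.336 ± 0.0333 (SD, n = 3 each).

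The basement membrane genes were then set against the interstitial ones. Of the 7 tested basement membrane genes 4 were higher and 1 lower in NC36h, while of the 24 tested interstitial genes 6 were higher and 12 lower. These are 57.1% higher and 14.3% lower for the basement membrane and 25% and 50% for the interstitial genes, against 16.5% and 34.4% of all tested genes. The median change was 0.40 for the former and -0.34 for the latter, against -0.16 for all tested genes. The mean of log2(FPKM + 1) over the basement membrane genes was 4.57, 4.53 and 4.38 in NC24h and 5.02, 4.92 and 4.89 in NC36h. Over the interstitial genes it was 4.37, 4.44 and 4.46 and then 4.10, 4.08 and 4.11. The difference between the compartments was 0.19, 0.09 and -0.08 in NC24h and 0.93, 0.84 and 0.78 in NC36h, so it was larger in each NC36h library than in any NC24h library. No p is given, since the genes of a compartment are not replicates.

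The summed FPKM of the 9 basement membrane genes in the table was 278.6, 285.5 and 310.2 in NC24h and 320.8, 308.8 and 310.1 in NC36h, groups that overlap. LAMB1, LAMB2, LAMC1 and HSPG2 made up most of it. The sum of the 29 interstitial genes was 1968, 2193 and 2790 and then 1660, 1657 and 1692. The interstitial sum was 7.06, 7.68 and 8.99 times the basement membrane sum in NC24h and 5.17, 5.37 and 5.46 times in NC36h. With FN1 left out these ratios were 6.04, 6.31 and 6.32 and then 4.97, 5.14 and 5.21.

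**Figure D5:**
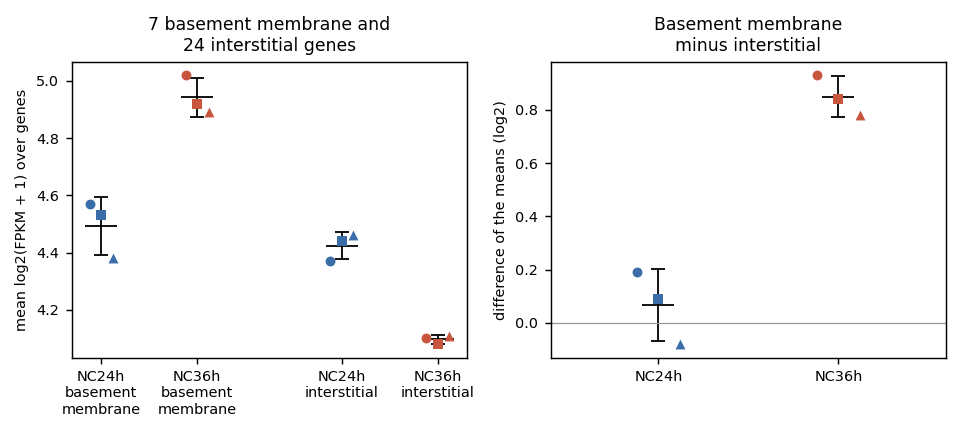
Left, the mean of log2(FPKM + 1) over 7 basement membrane and 24 interstitial genes in each library; right, the difference between these means; bars are the mean and SD of 3 libraries, and circles, squares and triangles are replicates 4, 5 and 6. The difference lay between -0.08 and 0.19 in NC24h (blue) and between 0.78 and 0.93 in NC36h (red).

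The 8 genes under the FPKM minimum were TNXB, FBLN1, MFAP2, ASPN, LAMA3, LAMB3, MMP9 and THBS4. LAMA3 and MMP9, known from epithelia and leukocytes, had 5 or fewer fragments per group, and FBLN1 had 6 and 3. TNXB had 73 and 103 fragments. ASPN, asporin, was at 0.249, 0.140 and 0.140 and then 0.442, 0.455 and 0.340, and MFAP2 at 0.393, 0.0507 and 0 and then 0.759, 0.872 and 0.461. Fitted with no filter, ASPN and MFAP2 had limma adjusted p of 0.0199 and 0.0320. LAMB3 had 52 and 115 fragments (adjusted p = 0.0575 in that fit).

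Other matrix genes were listed for comparison, and their counts are to be read against 16.5% higher and 34.4% lower among all tested genes. Of 23 further glycoproteins tested, 6 were higher and 7 lower. SPARCL1, a relative of SPARC, went from 17.9, 12.6 and 4 to 93.7, 74.3 and 63.0 (change 2.83, limma adjusted p = 0.00362), and LTBP2, which binds elastic microfibrils, from 26.7, 38.1 and 102.7 to 7.48, 10.5 and 11.7 (change -2.17, limma adjusted p = 0.00868). IGFBP7 and FREM2 each rose by 1.30. Of 30 further proteases and inhibitors 3 were higher and 18 lower. ADAMTS15, a versican-cutting protease, went from 1.78, 1.2 and 0.299 to 15.7, 12.8 and 10.6 (change 2.80, limma adjusted p = 0.00102). ADAMTS6, SERPINE2 and HTRA1 changed by -1.95, -1.44 and -1.25. Of 10 further proteoglycan and hyaluronan genes 1 was higher and 5 lower, with HMMR, a hyaluronan receptor that is also a mitotic spindle protein, at -2.14. Of 9 tested matrix receptors 3 were higher and 3 lower. BCAM, a receptor for laminin α5, rose by 1.74 (limma adjusted p = 0.00299) and ITGAV, part of receptors for fibronectin, changed by -1.35 (limma adjusted p = 0.00165). ITGA3 changed by -1.26 (limma adjusted p = 0.0298, called in 11 of 15 alternatives), and ITGA4 rose by 0.65 (limma adjusted p = 0.00972).

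Markers of other cells were read beside these results. Of 17 fibroblast markers that are not among the matrix genes above, 11 were in the table. The summed FPKM of these 11 was between 1255 and 1569 in NC24h and between 996.6 and 1180 in NC36h. Of the 9 that were tested, 2 were higher and 4 lower, where 16.5% and 34.4% of all tested genes were. COL3A1 rose by 0.87 and PDGFRB by 0.90, while COL1A2, LOX, S100A4 and CLEC3B changed by -0.62, -1.58, -1.60 and -0.62, and CLEC3B was called in only 6 of 14 alternatives (adjusted p from 0.0256 to 0.138, and 0.0951 in the fit lacking NC24h replicate 6). PDGFRA and PI16 of this list lay under the FPKM minimum and went in opposite directions. PDGFRA, a defining marker of muscle fibroblasts, was at 0.321, 0.456 and 0.680 in NC24h and at 0.131, 0.108 and 0.0188 in NC36h. PI16 was at 0.157, 0.203 and 0.0404 in NC24h and at 1.54, 1.03 and 0.702 in NC36h. Several of these markers are matrix or matrix-processing genes that myoblasts also make. All 5 tested proliferation markers were called lower (34.4% of all tested genes), and 7 of 9 tested muscle markers were called higher (16.5% of all tested genes). PTPRC of leukocytes and KDR of endothelial cells were at 0 in every library, but other markers on their lists were detected. CD14 of leukocytes was called lower, with a mean FPKM of 2.59 in NC24h and 1.18 in NC36h (limma adjusted p = 0.0103). CEBPA of adipocytes was also called lower (limma adjusted p = 0.0487), but in only 4 of 14 alternatives. PECAM1 and CD68 were not called. FLT1, under the FPKM minimum, averaged 1.43 and then 0.551, without overlap. The summed endothelial, leukocyte and adipocyte markers stayed under 5.73 in each library. The part of these cells in the matrix results was not tested, and in bulk RNA fewer cells of a type and less RNA per cell cannot be told apart.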

How the data were processed

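RNA-seq of 6 PSC libraries (3 NC24h, 3 NC36h) was analysed. Reads were paired-end, and the deposited table holds the authors' FPKM values for each library. The study's methods name HISAT2, StringTie and HTSeq, whereas the submitters' processing notes name TopHat2, Cufflinks and HTSeq, both on Sscrofa11.1. Strand and shared reads are not given in the sources used here, and the span of 10 of the 49 genes with RefSeq coordinates overlaps another protein-coding gene. They are TNXB, FBLN5, ASPN, HSPG2, TIMP1, ADAMTS1, ADAM12, ADAM19, ECM1 and ECM2. Symbols were paired with 11804 of 25322 Ensembl identifiers.

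Genes averaging 1 FPKM or more were tested on log2(FPKM + 1) with limma (version 3.58.1, under R 4.3.3), using a mean-variance trend, two-sided tests and Benjamini-Hochberg adjustment. The methods name a count test, but the deposited values are FPKM, so limma on the log scale was the main test. Whole fragments were recovered from the steps of the FPKM values in all 19543 genes above 0 in at least 3 libraries, to within 0.02. Voom was fitted to them as an alternative and called 7244 genes. A common factor in a gene's fragments would make them too few. The fit and the recovery of fragments were tested on simulated data. The replicate numbers were not taken as pairs.

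The genes, lists and ratios were chosen with earlier results of these data known. All 42 tested genes are reported, and values per library are given for those called with a change of at least 1, for laminins, nidogens, hyaluronan genes and the highest gene of each role. Up to 4 genes of each other list are named by size of change. Markers of other cells were fibroblast, muscle, endothelial, leukocyte, adipocyte and proliferation lists.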

Additional observations from a re-analysis of the deposited data

How the results depend on the processing

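Each result was recomputed in 15 alternatives to the fit. Of the 31 matrix genes called, 21 were called in the same direction in each alternative in which they were tested, and 10 lost the call in at least 1. The number called higher in NC36h, 13, left a factor of 1.5 in one alternative, at 8 without NC36h replicate 5. The fits without one library each gave 8 to 14 genes higher, 15 to 19 lower and 4889 to 7336 of all genes. In those fits the mean change of the basement membrane genes minus that of the interstitial genes, 0.78 as reported, was between 0.71 and 0.84. Signs turned in 4 uncalled genes, for causes not tested. LAMC1 was at 0.16 with median-ratio scaling and between -0.09 and 0.05 with one library left out, at 0.04 without NC24h replicate 6, 0.005 without NC36h replicate 5 and 0.05 without NC36h replicate 6. VCAN was at 0.10 with median-ratio scaling and 0.010 without NC24h replicate 4 (lowest -0.17 with one library left out), ADAMTS5 at 0.01 with median-ratio scaling, and HSPG2 at -0.04 without NC36h replicate 6 (highest 0.19 with one library left out).

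Deviations from the group mean were correlated across genes between libraries of one number, at r = 0.15, -0.02 and 0.18 for replicates 4, 5 and 6. Between different numbers r was from -0.2 to 0.1. Replicates 4 and 6 lay above that range and replicate 5 within it. The numbers were not taken as pairs, though partial pairing remains possible. With the replicate block 7034 of all genes were called, and 13 matrix genes were higher and 19 lower. Genes under an FPKM of about 1 rest on few fragments, and 3 libraries per group limit every comparison.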
